A study of Drosophila melanogaster with 76 samples.

Results

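The 8 pair-rule genes even-skipped (eve), hairy (listed as hry), runt (run), odd-skipped (odd), paired (prd), odd-paired (opa) and the sloppy-paired genes slp1 and slp2 were followed through 31 lists of ChIP-seq peaks from Drosophila S2 cells. They are 8 of the 13922 protein-coding genes on the 6 main chromosome arms, and were chosen by name. At each gene, the summits of each list (the single base of strongest signal in a peak) were counted within the gene span plus 8 kb on both sides, called its window here. Coordinates are those of the build dm6.

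Pair-rule genes are the tier of the segmentation hierarchy that turns the broad maternal and gap gradients of the early embryo into stripes. Their products are transcription factors, and they set the stripes of the segment polarity genes that follow. eve, hry and run belong to the group that reads gap proteins most directly, through separate enhancers for single stripes. prd, slp1 and slp2 take their stripes largely from other pair-rule proteins, and opa acts as a broad timing factor rather than as a striped one. Zelda (Zld) opens chromatin at many early patterning genes in the embryo, Grainy head (Grh) does so in epithelia, and Twist (Twi) directs mesoderm formation. S2 cells are a cultured line with features of embryonic blood cells.

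The cells were wild type or carried a construct switched on by copper sulfate, and wild-type cells also received copper at 1000 µM (anti-Zld), 100 µM (anti-Grh) or 40 µM (anti-Twi and anti-HA). Zld was induced at 500, 1000 and 1500 µM, Grh at 25, 100 and 400 µM, Twi at 40 µM, and Twi with an HA tag (HA-Twi) at 10, 40 and 160 µM, with a 0 µM list for Zld, Grh and HA-Twi. Truncated constructs named DBD, read here as the DNA-binding domains, were induced at 100 and 400 µM (Zld-DBD) or at 20 and 80 µM (Grh-DBD). In further lists the induced cells (Zld at 1000 µM, Grh at 100 µM, HA-Twi at 40 µM) had been given DMSO or "taz", a name the labels leave unexplained. Each construct is one labelled line, and the labels used here do not say whether a line is a clone. The antibodies were against Zld, Grh, Twi or the HA tag. Peak lists cannot show cell type markers, so the S2 label was not checked.

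Every list combines 2 libraries, so 1 value stands for a group and no test between groups was possible. The spread between experiments is read from lists that match in construct, dose and antibody but carry different titles: 3 lists each for Zld at 1000 µM and Grh at 100 µM, and 2 each for HA-Twi at 40 µM, Zld-DBD at 100 µM and Grh-DBD at 20 µM. The sets of Zld, Grh and HA-Twi each include the list with DMSO, which is the only repeat for HA-Twi. In each such set 1 list is called the single-dose list here, except for HA-Twi, where the dose-series list at 40 µM takes that place. The lists hold 88 to 20194 summits. Sequencing depth is not given in the files. The fold of a summit is the authors' enrichment over local background, and it is used only to rank summits within a list.

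Of the 8 genes, hry was bound most widely, with a summit in 28 of the 31 lists. It was followed by opa in 24 lists, eve in 23, slp2 in 20, prd and slp1 in 16 each and odd in 13. The median over all coding genes was 20 lists. run had no summit in any list. Over all lists together hry gathered 280 summits, while eve gathered 50, opa 45, slp2 34, odd 27, and prd and slp1 19 each. The median over all genes was 51 summits, and 0.970% of genes had as many as hry. Thus hry stood far above the other members in summit number, and the other members stood at or below the typical gene.

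**Figure D1:**
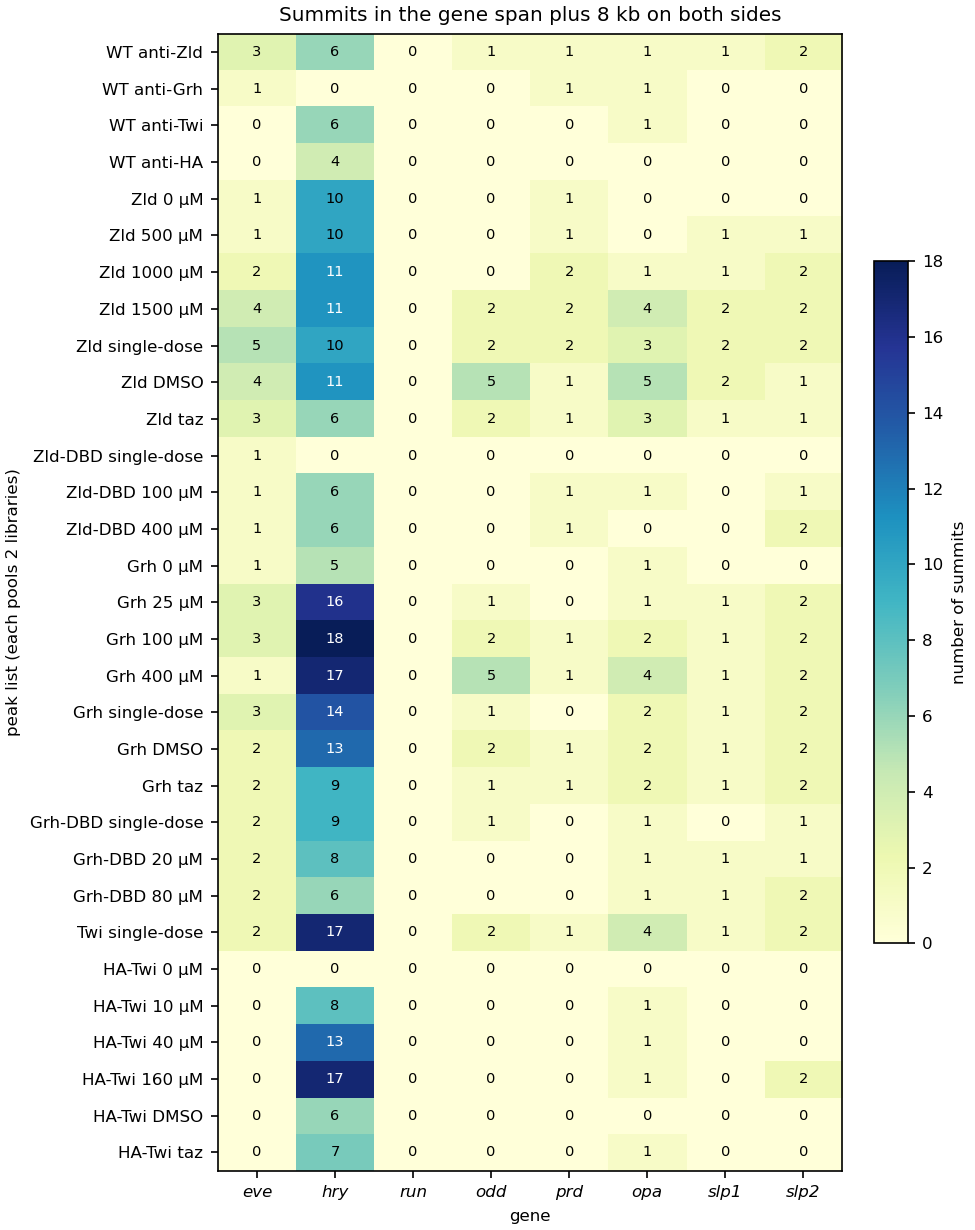
Number of summits in the window of each pair-rule gene (columns) in each of the 31 peak lists (rows); each list pools 2 libraries and the colour follows the printed number. hry reaches 18 summits in the Grh list at 100 µM, run is at 0 in every row, and no other gene exceeds 5.

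Wild-type cells give the signal of each antibody without a construct. The wild-type anti-Zld list had summits at 7 of the 8 genes, where 71.9% of all coding genes had one, and 15 summits in all. The wild-type anti-Grh list reached 3 genes (38.5% of all genes), the anti-Twi list 2 (48.3%) and the anti-HA list 1 (37.4%). The opa summit of the anti-Zld list, on chromosome 3R at 4852552 and just outside the lower-coordinate end of the gene, had a fold of 37.5 and ranked 8 of 8888 in its list. Most pair-rule loci, like most coding genes, therefore carried anti-Zld summits in cells without a construct. Counts of genes outside the wild-type lists follow, while summit counts per gene, dose and treatment include all summits of a list unless stated.

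In the lists with an induced factor, the single-dose Zld list held summits at 7 genes (73.7% of all genes) and the single-dose Twi list also at 7 (83.6%). The single-dose Grh list held them at 6 (80%), lacking prd as well as run. HA-Twi at 40 µM reached hry and opa alone, 2 of 8 beside 33.3% of all genes. These shares lie close to the genome-wide shares of their lists, so presence of a summit does not set the pair-rule genes apart in them. The Zld list with DMSO differed in this respect: it held summits at 7 of the 8 genes, while 22.3% of all genes had one. That list is short, with 3116 summits, and 29 of them, or 0.931%, lay in the 8 windows. In the other induced Zld lists the share of summits in the windows ran from 0.117% to 0.456%.

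Taking out summits whose region overlapped a wild-type region of the same antibody by 1 bp or more left 5 of the genes in the single-dose Zld list: eve, odd, prd, opa and slp1 (36.5% of all genes). In the DMSO list the same rule left eve, odd, prd, opa and slp1, where 16.8% of all genes were left. In the dose series it left only hry at 500 µM (53% of all genes), hry, prd and opa at 1000 µM (54.3%), and eve, odd, prd, opa and slp1 at 1500 µM (60.4%). The rule removes every summit of a region that touches a wild-type region. At hry 11 summits lay in 8 regions at 1000 µM but in 4 regions at 1500 µM. Removing only summits within 250 bp of a wild-type summit left 6 genes in the single-dose list. A required overlap of 50% of both regions also left 6. No share of all genes is given for either of these rules. The dose-series list at 1000 µM and the single-dose list share dose and antibody, so 3 against 5 genes is the spread between experiments. All these counts use the same wild-type list and are not independent. When summits over regions of the 0 µM Zld list were also removed, the single-dose list kept 5 genes (15.2% of all genes), the DMSO list 5 (14.6%) and the 1000 µM list 3 (27%). The 1500 µM list kept 5 (39.5%).

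The same wild-type filter left hry alone in the 0 µM Zld list (43% of all genes). For Grh it left 5 genes at 25 µM (71.8%), all but prd, opa and run, and 7 at both 100 µM (77.5%) and 400 µM (78.7%). The single-dose Grh list kept 6 (74.9%), and the uninduced Grh list eve and hry (15.1%). Removing the 0 µM regions as well left 5 at 25 µM (69.8%). Twi kept 7 genes (78.9%). HA-Twi kept 2 at 10 µM (19.7%), 2 at 40 µM (29.4%) and 3 at 160 µM (43%), namely hry and opa and, at the highest dose, slp2. For Grh and both forms of Twi these counts lie near the genome-wide shares. They rest on the wild-type list of the same antibody: outside all 4 wild-type lists together, the single-dose Grh list kept 2 genes, Twi 3 and HA-Twi at 40 µM 1. The single-dose Zld list kept 5 under this rule. No share of all genes is given for it, so these counts cannot be set against a genome-wide change.

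**Figure D2:**
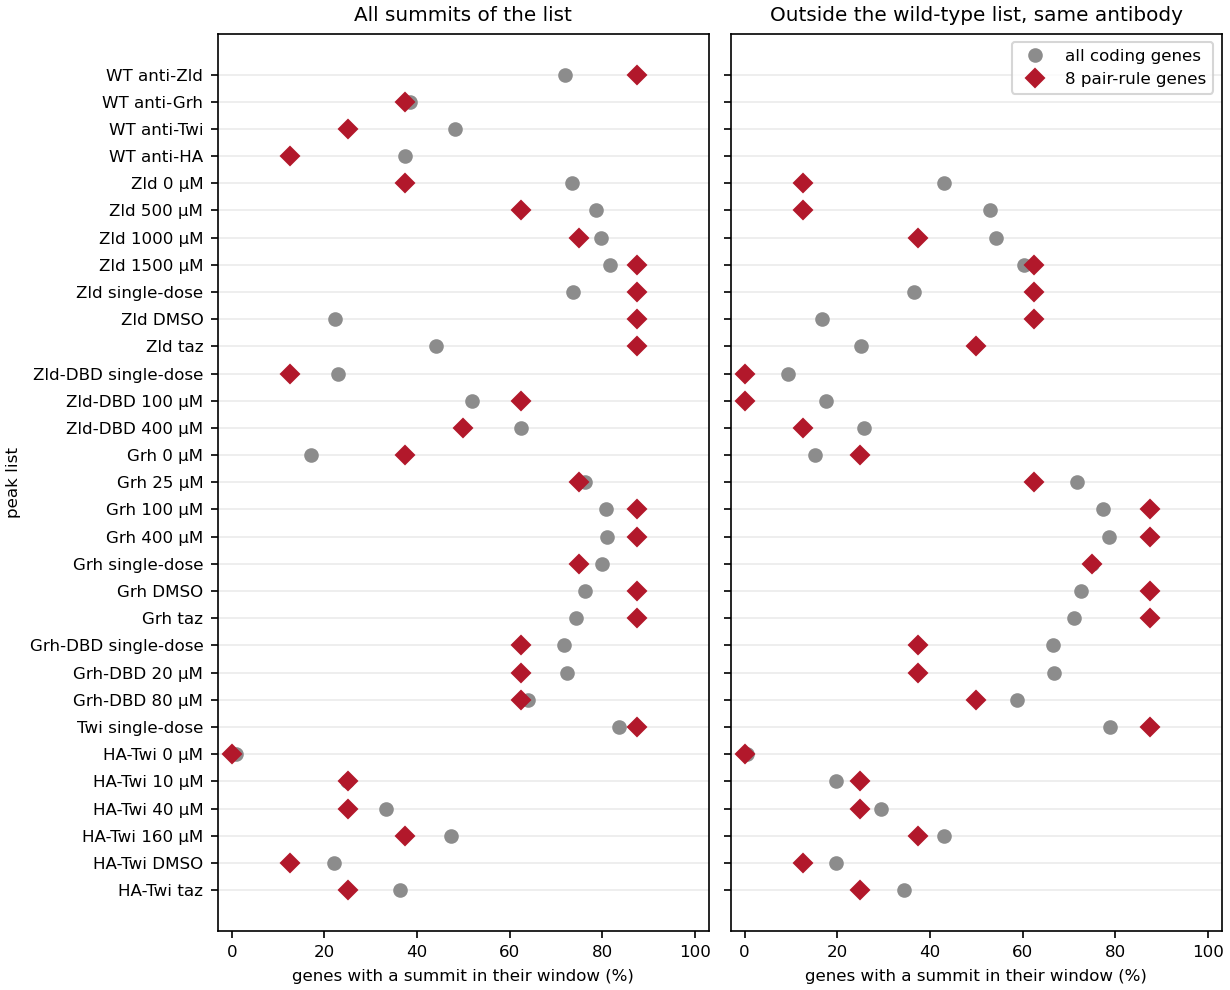
Share of genes with a summit in their window in each peak list, as a percentage on the horizontal axis, for the 8 pair-rule genes (diamonds) and for all coding genes (circles); the right panel leaves out summits over regions of the wild-type list with the same antibody. The Zld DMSO list shows the widest gap, with 7 of 8 pair-rule genes beside 22.3% of all genes.

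The summits of all lists were joined to sites wherever neighbours lay within 250 bp. The windows held 60 sites: 26 at hry, 11 at opa, 10 at odd, 6 at eve, 3 at prd, 2 each at slp1 and slp2, and none at run. Of these sites 20, or 33.3%, also had a summit in a wild-type or 0 µM list, called control lists here, while 35.8% of the 35060 sites of the whole genome did. Outside the control lists, 15 of the 60 sites (25%) were seen in induced full-length Zld lists and in those of no other full-length factor, against 7.88% of sites in the genome. The same count was 10 sites (16.7%) for Grh beside 24.7% in the genome, and 8 (13.3%) for Twi and HA-Twi beside 15.8%. Sites in lists of all 3 factors numbered 16 (26.7%), beside 26.9% in the genome. Of the 15 sites of Zld alone, 10 were in 2 or more lists. The short DMSO list held 13 of them, the 1500 µM list 10, the single-dose list 6 and the taz list 5. The dose-series lists at 1000 and 500 µM held 1 and 0, so the Zld share rests largely on a few lists.

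Position differed with the class of site. Of the 20 sites in a control list, 9 (45%) lay within 500 bp of the end of a coding gene, as did 47.3% of such sites in the genome. Of the 40 sites in no control list, 1 (2.5%) did, beside 18.6% in the genome. That site is the Zld site just beyond the higher-coordinate end of prd. Sites of 1 locus are neighbours and not independent of each other, and the table of genes used here gives no strand, so the promoter end of each gene is not marked.

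**Figure D3:**
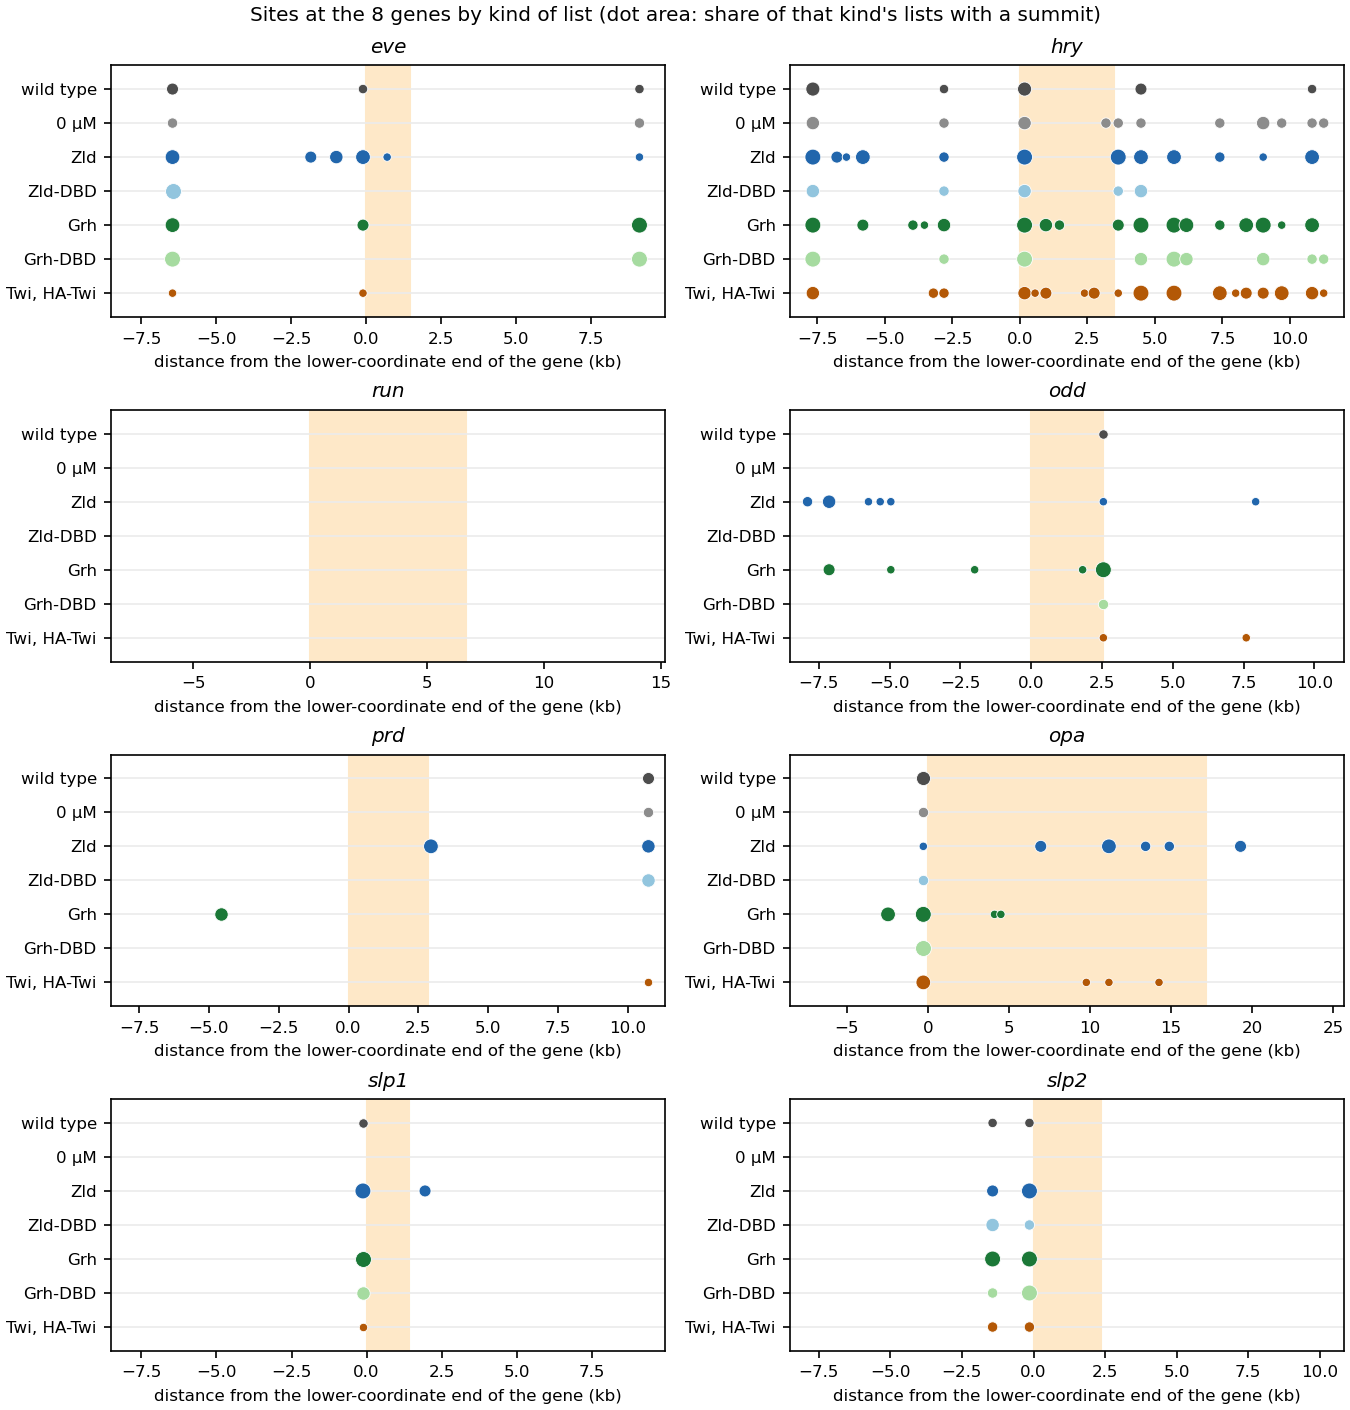
Sites at each of the 8 genes by kind of list, with distance in kb from the lower-coordinate end of the gene on the horizontal axis and the gene span shaded; the area of a dot follows the share of that kind's lists with a summit there. Control, Zld, Grh and Twi lists share sites near the ends of slp1, slp2 and opa, while sites of Zld lists outside the controls lie away from the ends of eve, odd and opa.

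eve encodes a homeodomain repressor whose stripes are a textbook case of enhancers for single stripes. It had 1 to 5 summits in the 6 induced Zld lists, with 1 at 500 µM, 2 and 4 at 1000 and 1500 µM, 5 in the single-dose list, 4 with DMSO and 3 with taz. The induced Grh lists held 1 to 3, each DBD list of Grh 2 and of Zld 1, the Twi list 2 and all HA-Twi lists none. The wild-type anti-Zld list already held 3. The number of summits at eve in the Zld lists thus lay on both sides of the wild-type number, and the lists at 500 and 1000 µM held no site that the wild-type list lacked.

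At eve, sites on chromosome 2R at 9977436 to 9977489 and 9978287 to 9978379, which are 1840 and 988 bp below the lower end of the gene, were seen in 3 and 4 lists, all of them induced full-length Zld. In the DMSO list their folds were 4.92 and 5.01, above the list's median of 3.03. The site at 9979192 to 9979251, 97 bp from the lower end, was shared by 10 lists, 5 of Zld, 3 of Grh, Twi and wild-type anti-Zld. The most widely shared site, at 9972840 to 9972885 in 20 lists, lies 82 bp from CG12134 and 6457 bp from eve. Another, at 9988433 to 9988495, lies 706 bp from TER94, and its summit had the highest fold at eve in the single-dose Grh list, 60.6, rank 29 of 13859. Both of these sit closer to a neighbouring gene than to eve, and both were also in control lists. The site near CG12134 was in the wild-type anti-Zld and anti-Grh lists and in the 0 µM Zld list. The site near TER94 was in the wild-type anti-Zld list and in the 0 µM Grh list. In the dose-series Grh list at 100 µM the summit near TER94 had a fold of 5.28, rank 3992 of 18089. With DMSO its fold was 5.27, rank 2406 of 13714.

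hry encodes a basic helix-loop-helix repressor of the Hairy family, and it also has stripe enhancers spread over a long flank. Its counts were 10, 11 and 11 summits at 500, 1000 and 1500 µM Zld, 10 in the single-dose list, 11 with DMSO and 6 with taz. The Grh lists held 16, 18 and 17 at 25, 100 and 400 µM, 14 in the single-dose list, 13 with DMSO and 9 with taz. Twi gave 17, and HA-Twi gave 8, 13 and 17 at 10, 40 and 160 µM, with 6 under DMSO and 7 under taz. Unlike the other members, hry was also rich in summits without induction, with 6 in the wild-type anti-Zld and in the wild-type anti-Twi list, 4 with anti-HA, 10 in uninduced Zld cells and 5 in uninduced Grh cells. The wild-type anti-Grh list held none.

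Of the 26 sites at hry, the pair at 3L 8667989 to 8668705 and at 8675302 to 8676059 was present in 26 lists each, and that at 8680114 to 8680858 in 24. These include 3, 3 and 2 of the 4 wild-type lists. Another site, at 8681308 to 8681597 and 2214 bp beyond the higher-coordinate end, was present in 20 lists: all 6 induced Grh lists, all 6 of Twi and HA-Twi, 5 of 6 Zld lists and the 3 Grh-DBD lists, but in no control list. It was the only one of the 60 sites outside the control lists that all 3 factors shared. Of the hry sites outside the control lists, the Zld lists held 2, 2 and 4 at 500, 1000 and 1500 µM. The single-dose and DMSO lists held 3 each and the taz list 0. The region filter above nonetheless left hry out of the 1500 µM, single-dose and DMSO lists. The highest folds at hry were 7.26 in the single-dose Zld list (rank 163 of 9213), 14.9 in the Grh list (rank 1094) and 4.72 in the Twi list (rank 2638 of 18288). By number of summits hry stood high in each list, with as many or more at 1.26% of all genes for Zld, 1.31% for Grh and 1.53% for Twi.

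run encodes a Runt-domain factor of the family that includes the vertebrate RUNX proteins. No list had a summit in its window on chromosome X, between 20682670 and 20705321. The nearest summit in any list lay 26271 bp from the gene, and the median distance over the lists was 31833 bp. Across the genome 8.54% of coding genes, and 12.5% of those on the X, had no summit in any of the 31 lists.

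odd encodes a zinc-finger repressor. Its window was empty in the Zld lists at 0, 500 and 1000 µM and held 2 summits at 1500 µM, 2 in the single-dose list, 5 with DMSO and 2 with taz. The Grh lists held 1, 2 and 5 summits at 25, 100 and 400 µM, 1 in the single-dose list, 2 with DMSO and 1 with taz. Twi gave 2 and every HA-Twi list none. Lists of Zld at the same 1000 µM thus ran from 0 to 5 summits at odd, so its Zld counts varied as much between repeat experiments as between doses.

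The widest shared site at odd, on 2L at 3606608 to 3606792, covers the higher-coordinate end of the gene and was found in 10 lists, among them all 6 induced Grh lists and the wild-type anti-Zld list. It carried the highest folds at odd in the single-dose lists, 23.0 for Grh, 5.02 for Twi and 3.02 for Zld. A site 7133 bp below the gene, at 3597072 to 3597152, was found in 4 Zld and 3 Grh lists and no control list. In the Zld DMSO list it had a fold of 8.11 and rank 52 of 3116, and in the 1500 µM list a fold of 6.16 and rank 91 of 12919.

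prd encodes a paired-domain and homeodomain activator, the founding member of the Pax family. It had 1 or 2 summits in each induced Zld list, 1 or none in the Grh lists, 1 in the Twi list and none in the HA-Twi lists. A site at 2L 12085936 to 12085954, 122 bp beyond the higher-coordinate end of prd, was found in 5 of the 6 induced Zld lists and in no other list. Its fold in the single-dose Zld list was 9.12, rank 82 of 9213, the highest Zld fold of any pair-rule gene in that list. In the repeat lists it was 2.76 in the dose series at 1000 µM (rank 5155 of 12423) and 3.18 with DMSO (rank 1438 of 3116). The highest pair-rule folds in those 2 lists were 5.74 at hry and 8.11 at odd. The remaining sites of the prd window lie nearer to other genes. A site in 4 Grh lists is 692 bp from CG14947, and a site in 10 lists, including 3 control lists, lies inside Pex19.

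opa, a Zic-family zinc-finger gene, is the longest member at 17167 bp. It had no summit in the Zld lists at 0 and 500 µM, 1 at 1000 µM, 4 at 1500 µM, 3 in the single-dose list, 5 with DMSO and 3 with taz. The Grh lists held 1, 2 and 4 summits at 25, 100 and 400 µM and 2 in each other induced list, the Twi list held 4, and HA-Twi lists held 1 each except for none with DMSO and at 0 µM. Apart from 1 summit of the single-dose list at the lower end, the Zld summits lay inside the gene and beyond its higher end.

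The site at 3R 4852490 to 4852567, 292 bp below the lower end of opa, was found in 20 lists, including all 6 induced Grh lists, 3 wild-type lists and 1 induced Zld list. In the single-dose Grh list its fold of 72.6 ranked 13 of 13859. In the repeat Grh lists at 100 µM its fold was 3.98 (dose series) and 4.09 (DMSO). Another opa site had the highest fold there, with ranks of 3369 of 18089 and 1992 of 13714. Inside the gene, the site at 4863973 to 4864025 was found in 5 induced Zld lists and in the Twi list but in no control list, with a fold of 6.40 and rank 242 in the single-dose Zld list. Sites at 4859727 to 4859778, 4866243 to 4866247 and 4867690 to 4867731 within the gene, and at 4872095 to 4872126 beyond it, were found in 2 or 3 Zld lists each and in no other list. A site at 4850329 to 4850353 was found in 5 Grh lists only. The summit of highest fold at opa in the Twi list, 5.53, was at 4867074 inside the gene and in no other list.

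slp1 and slp2 are neighbouring forkhead genes with overlapping stripes; their windows overlap, but no summit fell in both. slp1 had 1 or 2 summits in each induced Zld list, exactly 1 in each induced Grh list, 1 in the Twi list and none in any HA-Twi list. slp2 had 1 or 2 in the Zld lists, exactly 2 in all 6 induced Grh lists, 2 in the Twi list and 2 in the HA-Twi list at 160 µM. Each gene had its most shared site just outside its lower-coordinate end, at 2L 3825541 to 3825576 (16 lists, 123 bp from slp1) and 3836643 to 3836801 (19 lists, 142 bp from slp2). A further slp2 site at 3835393 to 3835434 was in 15 lists. All 3 sites were present in the wild-type anti-Zld list and in no other control list, with folds of 9.01, 5.68 and 8.72 there. In the single-dose Grh list the highest fold was 20.1 at slp2 (rank 612) and 9.03 at slp1 (rank 2695). The only site at either gene outside the control lists was at 3827603 to 3827656, 521 bp beyond slp1, in 3 Zld lists, with a fold of 5.87 and rank 298 of 3116 under DMSO.

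In each dose series the windows held more summits at the highest copper dose than at 0 µM, as did the lists as a whole. For Zld the windows held 12, 14, 19 and 27 summits at 0, 500, 1000 and 1500 µM, while the lists held 8290, 11980, 12423 and 12919. The genes with a summit numbered 3 at 0 µM (73.4% of all genes), 5 at 500 µM (78.5%), 6 at 1000 µM (79.7%) and 7 at 1500 µM (81.6%). From 0 to 1500 µM, 7 of the 8 genes gained summits, as did 56.9% of all genes. At 1500 µM, 10 sites appeared that no lower Zld dose had shown, and 5 sites of lower doses were missing. The other Zld lists at 1000 µM held 26 window summits (single-dose) and 29 (DMSO). The step from 19 to 27 thus lay within the spread between experiments at 1000 µM only with the DMSO list counted. At eve, opa and odd, lists at 1000 µM ran from 2 to 5, from 1 to 5 and from 0 to 5 summits, which spans the values at 1500 µM. At opa this too needs the DMSO list, with 5, as the single-dose list held 3 beside 4 at 1500 µM.

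For Grh the windows held 7, 24, 29 and 31 summits at 0, 25, 100 and 400 µM, and the genes with one numbered 3 (17%), 6 (76.2%), 7 (80.7%) and 7 (81%). Here 6 of 8 genes gained summits, beside 80.3% of all genes, and most of the gain was reached at 25 µM. The Grh lists as a whole held 1853, 13787, 18089 and 20194 summits. Repeat lists of Grh at 100 µM held 23 to 29 window summits, so the step from 24 to 29 lay within the spread between experiments. For HA-Twi the windows held 0, 9, 14 and 20 summits at 0, 10, 40 and 160 µM, with 0 (0.941%), 2 (24.8%), 2 (33.3%) and 3 (47.3%) genes. The gain with HA-Twi lay almost wholly at hry, where 17 of the 20 summits at 160 µM were found. The HA-Twi lists as a whole held 88, 3424, 5461 and 8192 summits, so the 0 µM list could show few summits anywhere. HA-Twi lists at 40 µM ran from 6 window summits with DMSO to 14 in the dose series, and from 6 to 13 at hry. The step from 9 to 14 thus lay within the spread between experiments, while the counts at 160 µM lay above it. As a share of the list, the window summits went from 0.145% at 0 µM to 0.209% at the highest dose for Zld. For Grh the share was lower at the highest dose, 0.154% beside 0.378% at 0 µM, and for HA-Twi it was 0.263% at 10 µM and 0.244% at 160 µM.

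**Figure D4:**
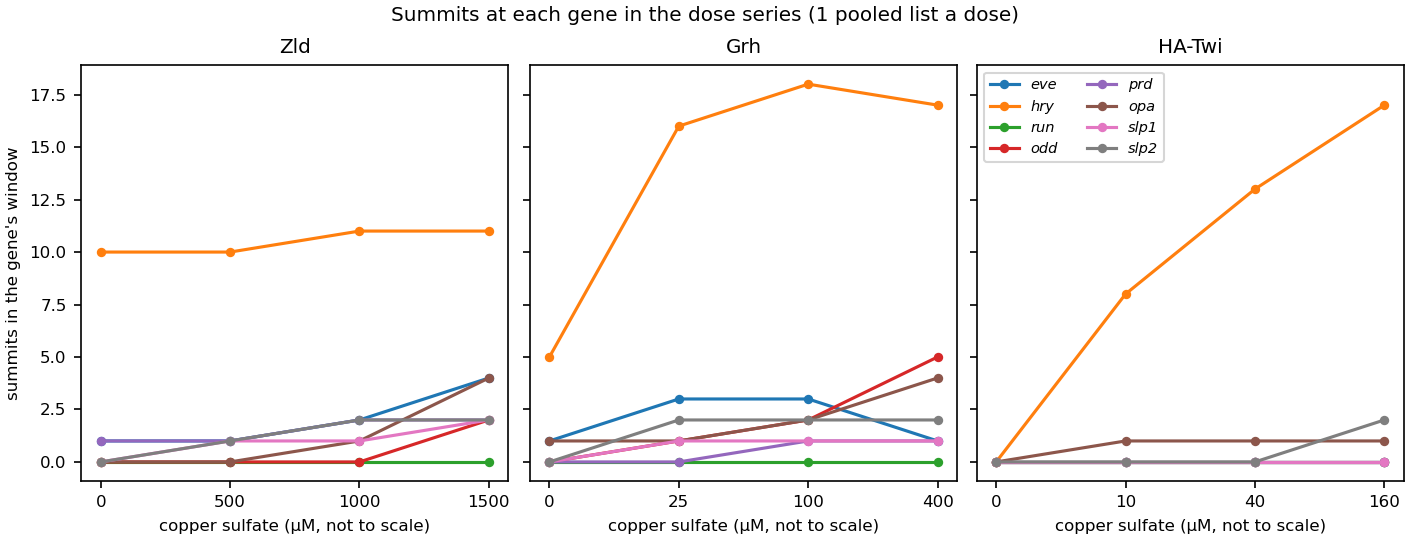
Number of summits in each gene's window (vertical axis) at each copper sulfate dose in µM (horizontal axis, evenly spaced and not to scale) for Zld, Grh and HA-Twi; each point is 1 list that pools 2 libraries. hry rises from 0 to 17 with HA-Twi and from 5 to 17 with Grh but stays at 10 to 11 with Zld. The HA-Twi list at 0 µM holds 88 summits in all. At hry repeat lists ran from 6 to 13 with HA-Twi at 40 µM and from 13 to 18 with Grh at 100 µM. eve, opa and odd have 4, 4 and 2 summits with Zld at 1500 µM, values inside the range of repeat lists at 1000 µM. At opa only the DMSO list of that range exceeds 4.

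Twi was measured with and without a tag, at 40 µM in both cases but with different antibodies. The Twi list had 18288 summits and 29 in the windows, while the HA-Twi list at 40 µM had 5461 and 14. At hry the counts were 17 and 13, at opa 4 and 1. eve, odd, prd, slp1 and slp2 had 1 or 2 summits in the Twi list and none in the HA-Twi list. Construct, antibody and list length all differ between the 2 lists and cannot be told apart. The repeat HA-Twi list, with DMSO, held 6 summits, all at hry.

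The DNA-binding domains alone were compared with the full-length factors at their own doses, which differ. Zld-DBD lists held summits at 1 gene in the single-dose list (22.8% of all genes), 5 in the repeat list at 100 µM (51.8%) and 4 at 400 µM (62.3%). Of the 37 window sites of induced full-length Zld lists, 10 (27%) were in a Zld-DBD list, beside 40.2% of such sites in the genome. All 10 of these were also in a control list. Of the 20 full-length Zld sites outside the control lists, none was in a Zld-DBD list, beside 8.54% in the genome. These include the Zld sites of eve, odd, prd, opa and slp1 described above. Since the 2 Zld-DBD lists at 100 µM held 1 and 10 window summits and shared 1 of 8 sites, absence of a site from one of them carries little weight. After removal of wild-type regions the Zld-DBD lists kept no gene in the single-dose list (9.45% of all genes), none in the repeat list at 100 µM (17.7%) and hry at 400 µM (25.8%).

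Grh-DBD lists held summits at 5 genes each, in the single-dose list (71.8% of all genes), in the repeat list at 20 µM (72.3%) and at 80 µM (64%). Of the 33 full-length Grh sites 15 (45.5%) were in a Grh-DBD list, beside 46.6% in the genome. Outside the control lists this was 2 of 16 (12.5%), beside 20.5%, and both lie beyond the higher-coordinate end of hry, at 8681308 to 8681597 and 8681854 to 8681986. The strongest Grh sites of the single-dose list were in all 3 Grh-DBD lists at opa, eve, hry and slp2, in 2 at slp1 and in 1 at odd. The 2 lists at 20 µM held 13 and 14 window summits and shared 9 of 15 sites.

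For Zld the windows held 29 summits with DMSO and 17 with taz, although the taz list was the longer, with 3730 against 3116 summits. Summits were fewer with taz at 5 genes, eve, hry, odd, opa and slp1, equal at prd, slp2 and run, and more at none. Across all genes 11.4% had fewer and 32.7% had more. With taz 7 of the 8 genes still had a summit, beside 44.2% of all genes. Outside the wild-type list, taz left 4 genes, hry, odd, prd and opa (25.2%), with 7 summits, and DMSO left 5 with 13. Of the 26 DMSO sites 12 (46.2%) remained in the taz list, beside 47.3% in the genome. The largest losses were at hry, from 11 to 6, and at odd, from 5 to 2.

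The repeat experiments limit this comparison. The 3 Zld lists at 1000 µM without taz held 19, 26 and 29 window summits and shared 12 of 35 sites (34.3%), so the taz list with 17 lay just under their range. At single genes the taz value lay below the repeat range at hry (6 beside 10 to 11) and inside it at eve (3 beside 2 to 5), odd (2 beside 0 to 5), opa (3 beside 1 to 5) and slp1 (1 beside 1 to 2).

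Grh had 23 window summits with DMSO and 18 with taz, and the repeat lists held 23 to 29. Fewer were seen at 2 genes, hry (13 and 9) and odd (2 and 1), and more at none, beside 31% of all genes with fewer and 13.5% with more. Both lists reached 7 genes, beside 76.2% of all genes with DMSO and 74.3% with taz. Of 18 DMSO sites 15 (83.3%) remained, beside 83.8% in the genome. HA-Twi had 6 with DMSO and 8 with taz, inside its repeat range of 6 to 14, with 1 more each at hry and opa. No gene had fewer, beside 3.45% of all genes, and 23.3% of all genes had more. HA-Twi reached 1 gene with DMSO (22%) and 2 with taz (36.4%).

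**Figure D5:**
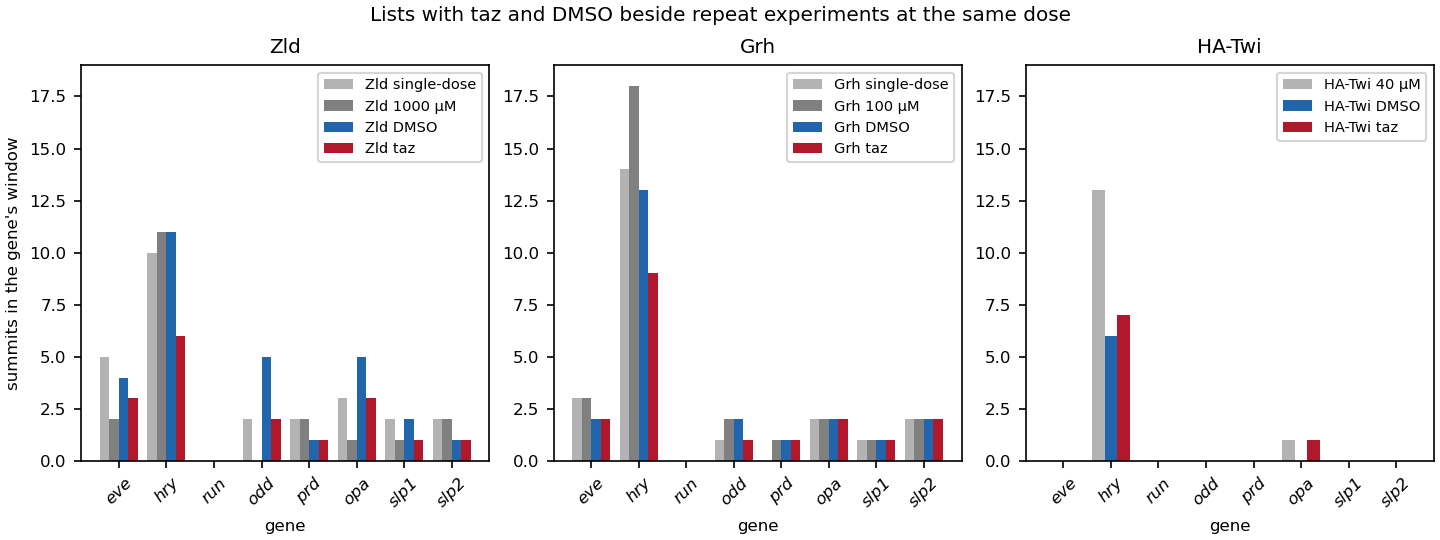
Number of summits in each gene's window with DMSO and with taz, beside the repeat lists of the same construct at the same dose (grey), for Zld, Grh and HA-Twi; every bar is 1 list. With Zld the hry bar falls from 11 under DMSO to 6 under taz, below the 10 to 11 of the repeat lists, while at eve, odd and opa the taz bars stand within them.

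Other tiers of the segmentation hierarchy were counted in the same windows. In the Zld DMSO list 5 of 11 gap genes, 10 of 14 segment polarity genes and 6 of 10 maternal and other regulators had a summit, beside 7 of 8 pair-rule genes and 22.3% of all genes. A last list, of 4 other pair-rule and odd-family genes, had 3 with a summit in the Zld DMSO list and in the single-dose Zld and Grh lists. In the single-dose Zld list (73.7% of all genes) the gap, segment polarity and maternal counts were 8, 14 and 10, and outside the wild-type list (36.5%) they were 3 of 11, 8 of 14 and 4 of 10. In the single-dose Grh list (80%) 9 gap and 14 segment polarity genes had a summit, and with HA-Twi at 40 µM (33.3%) 6 and 11. Among the gap and segment polarity genes, the highest single-dose Zld folds were at the segment polarity gene nkd, a Wingless antagonist (18.3), and at the gap gene hb (13.3), both above the 9.12 of prd in the same list. The highest single-dose Grh folds among them were at gsb (96.9), a Pax gene of the segment polarity class, and at the head gap gene ems (76.9), beside 72.6 at opa. The prd and opa sites ranked lower in the repeat lists, as given above.

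The genes whose pattern over the 31 lists was most like that of each member were found from the percentile of the gene's strongest summit within each list, set to 0 where there was none. Lists share cells, antibodies and length, so these correlations are descriptions. Pearson's r was 0.92 for eve with Ca-beta and 0.90 with Boh2, whose windows overlap. It was 0.92 for hry with Taf5 and with Rrp40, and 0.89 for odd with fkh and with ara, a forkhead and an Iroquois homeobox gene. For prd it was 0.82 with jigr1 and 0.81 with sNPF, and for opa 0.85 with noc and 0.83 with Coop. For slp1 it was 0.91 with LysD and with LysE, and for slp2 0.92 with Rpe and with boca, each a pair of neighbours. run had no summit and so no pattern to compare.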

How the data were processed

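Narrow peak lists of 31 groups, each pooling 2 libraries, were used, covering 62 of the 76 libraries; the other 14 (inputs and IgG) were not analysed here. Per the submitters' processing notes, the tools were Bowtie2 2.4.4, MACS2 2.2 and deepTools 3.5.1 and the build was dm6; settings were not listed. Per the file format, each summit carries the authors' deposited fold, a ratio over local background, and the authors' deposited −log10 q-value. Peak numbers have gaps, with 16.7% to 86.8% kept per list, and the sources used here do not give the filter, which affects every count, as does depth, which the files do not give.

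Genes were matched by symbol to RefSeq Release 6, the assembly of dm6, in a table with no strand, exons or sequence. Motifs in promoters, which had been planned, were therefore not searched. Counts were made with Python 3.11.15, pandas 2.3.3, numpy 2.4.6 and scipy 1.17.1, drawn with matplotlib 3.10.9, and tested on simulated summits. No p-value was computed. Replicates are pooled, so no interval for spread exists.

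The members, gene lists and rules were chosen with earlier results of these data known. Sites named are the most shared per gene and the highest-fold summit of each single-dose list; sites of 1 factor outside the control lists, and the named sites in few lists, were chosen after their values were seen. Of the other segmentation genes, the named ones have the highest fold of their list of genes. Alternatives were other windows, fold and rank limits, wild-type rules, joining distances and repeat lists.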

Additional observations from a re-analysis of the deposited data

Results flagged for a closer look

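From DMSO to taz, the change in summits over the 8 windows was -12 in the Zld lists and 2 in the HA-Twi lists. These 2 constructs moved in opposite directions under the same contrast, which is why the result is listed. Each value rests on 1 list per condition, and the difference between them was not tested. The HA-Twi count of 8 with taz lies inside the 6 to 14 of the repeat lists, and its direction reversed at a fold of 4 or more (0% of the DMSO count), in the 2000 highest summits (33.3%) and against the 40 µM list (57.1%). The Zld value came from hry, odd, opa, eve and slp1, with 5, 3, 2, 1 and 1 fewer summits, and the HA-Twi value from hry and opa, with 1 more each.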

How the results depend on the processing

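No paired analysis was possible because every list pools both libraries of its group, and no replicate could be left out for the same reason. Of 78 alternatives for the main results, 59 gave a value within 1.5 times of the main one. With a fold of 4 or more, Zld had a summit at 4 members, Twi at 3 and HA-Twi (40 µM) at 0. With the 2000 summits of highest fold they were 1 for Twi and 1 for HA-Twi. No share of all genes is given under either limit. The repeat HA-Twi list (DMSO) had a summit at 1 member, and at 1 outside wild type. Outside the wild-type list, the repeat Zld list at 1000 µM gave 3 members. Outside all 4 wild-type lists Grh kept 2, Twi 3, HA-Twi 1 and Zld 5, with no share of all genes given. Zld summits with taz were 58.6% of those with DMSO, but 11.1% at a fold of 4 or more and 89.5% against the list at 1000 µM. The median fold of the whole Zld list was 3.03 with DMSO and 2.52 with taz, so a limit of 4 cuts the 2 lists at different points. For HA-Twi the 133% reversed to 0% at a fold of 4 or more, 33.3% in the 2000 highest and 57.1% against the 40 µM list. Joining summits within 500 bp gave 39 sites in place of 60, with 5 for Grh alone and 2 for Twi alone. The causes were not tested. Among 162 alternatives for the number of members with a summit in the other lists, 110 stayed within 1.5 times and 52 moved further. The 110 include those of the HA-Twi list at 0 µM, which had a summit at 0 members in every setting. Leaving out sites nearer to another gene, an alternative chosen after seeing the data, left 7, 6, 6 and 2 members in the Zld, Grh, Twi and HA-Twi lists.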
